A study of Mus musculus with 16 samples.

Results

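Matrix metalloproteinases are zinc-dependent enzymes that cut collagens and other proteins of the extracellular matrix, and the tissue inhibitors of metalloproteinases (TIMPs) bind and block them. Most of the enzymes are made as inactive proenzymes, some of which are activated by other proteases on the cell surface or on their way out of the cell. In the pubertal mammary gland the epithelium grows into the fat pad from terminal end buds (TEBs), and remodelling of the matrix by stromal and epithelial cells is known to accompany that growth and the later side branching. The 8 genes described here are *Mmp2*, *Mmp3*, *Mmp11*, *Mmp14*, *Mmp23*, *Timp1*, *Timp2* and *Timp3*, chosen by name from the 17721 genes of the count table. All 8 were found.

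Single-cell RNA-seq was made from 16 single fragments, 4 nipples, 6 ducts and 6 TEBs, of mammary glands of C57BL/6 mice carrying *Krt14-Cre* and the *Rosa26-mTmG* reporter at 5 weeks of age. The labels give the location of the fragment as the only difference between groups and no treatment. They do not tie a fragment to a mouse, so p-values measure the spread between fragments, some of which may share an animal. In this reporter line Cre is driven by a keratin promoter of epithelial cells, and the sort gate used for the plates is not given in the sources used here. Each well held 1 sorted cell, and 3′ SMART-seq with unique molecular identifiers (UMIs) counted captured molecules.

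The deposited table held 1419 cells, of which 1317 passed the study's limits. Fragments had 83 to 93 deposited cells and 1856141 to 5233122 UMIs, spike-ins included. The kept cells comprised 429 ER+ luminal-like, 294 basal-like, 252 fibroblast-like, 178 ER- luminal-like and 78 myeloid-like cells, and 86 cells of 2 further clusters were left without a class. The names rest on marker genes: the 7 fibroblast markers lay between 356 (*Pdgfra*) and 7215 CPM (*Col3a1*; CPM scales the UMIs of each sum to a common total) in fibroblast-like cells and between 1.52 and 184 CPM in the 3 epithelial classes. *Krt5* was at 1099 CPM in basal-like cells and at 17.3 or less in the other classes. Locations were not spread evenly over clusters. Nipple fibroblasts lay almost wholly in cluster 4 (115 cells, against 29 of duct and 16 of TEB), while TEB fibroblasts lay mainly in cluster 7 (64 cells, against 3 of duct and 1 of nipple) and in cluster 9 (18 cells, against 6 of duct). TEB basal-like cells formed cluster 5 (81 of its 82 cells), and nipple and duct basal-like cells formed cluster 1 (96 and 115 of 212 cells). All 95 well barcodes occurred in more than 1 fragment, so a barcode alone does not tell fragments apart.

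The genes lie on GRCm38 as follows. *Mmp2* is on chromosome 8 (92827291 to 92853420, plus strand), *Mmp3* on chromosome 9 (7445822 to 7455975, plus strand) and *Mmp11* on chromosome 10 (75923222 to 75936496, minus strand). *Mmp14* is on chromosome 14 (54431612 to 54445364, plus strand) and *Mmp23* on chromosome 4 (155650655 to 155653384, minus strand). *Timp1* is on chromosome X (20870166 to 20874735, plus strand), *Timp2* on chromosome 11 (118301069 to 118355740, minus strand) and *Timp3* on chromosome 10 (86300372 to 86349506, plus strand). Overlaps matter here because the strand setting of the counting is not given in the sources used here. *Timp1* overlaps *Syn1* and *Timp3* overlaps *Syn3*, both on the opposite strand, but these partners had only 35 and 57 UMIs in the kept cells against 5791 and 6756 for the inhibitors. *Mmp11* overlaps *Chchd10* on the opposite strand, which had 7740 UMIs against 399, so the *Mmp11* values are uncertain. *Timp2* overlaps *Cep295nl* on the same strand, a gene with no row in the count table.

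*Mmp3* is the member whose fibroblast level turned on location, and the stretch of its promoter shown here carries the sequence that AP-1 factors are known to bind in stromelysin promoters. The window is chr9:7445766-7445792 on the plus strand (RefSeq, GRCm38.p6), and capitals mark a match to TGANTCA that starts 46 bases before the annotated gene start:

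Mmp3 promoter: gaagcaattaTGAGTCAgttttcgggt

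Of the 7 members with a RefSeq promoter entry (300 bases each, 250 before and 50 after the start), *Mmp3* was the only one with this motif on either strand, against 7.81% of 32851 promoter windows of the same length. *Mmp2* had no entry. The match is a description of the sequence and says nothing of binding in these cells.

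In fibroblast-like cells all 8 members were detected, and 1 of them, *Mmp3*, differed between locations. *Mmp3* (stromelysin-1, which cuts many matrix proteins and activates other proenzymes) was measured in fibroblasts of 4 nipple, 4 duct and 5 TEB fragments that each gave at least 5 such cells. Nipple fibroblasts had 1561, 1900, 2341 and 1737 CPM in N21, N22, N23 and N24. Duct fibroblasts had 55.6, 476, 1187 and 1285 CPM in D32, D52, D61 and D62. TEB fibroblasts had 19.6, 73.5, 112, 84.2 and 82.7 CPM in T31, T32, T33, T34 and T42. Every nipple fragment was thus above every duct and TEB fragment, and the ducts were spread from the TEB range up to near the nipple range. Between the fragments numbered 32 duct was below TEB, with 55.6 CPM in D32 and 73.5 in T32. Nipple numbers are not shared with duct or TEB fragments, so the location and whatever the numbers stand for cannot be told apart there. The means were 1885 ± 334 CPM in nipple (SD, n = 4), 751 ± 587 in duct (n = 4) and 74.4 ± 33.9 in TEB (n = 5).

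The nipple to TEB difference of *Mmp3* was 4.67 on the log2 scale (SE 0.73, adjusted p = 0.0080, edgeR quasi-likelihood test over all genes with Benjamini-Hochberg adjustment, as for every adjusted p below). *Mmp3* was the only member of 8 past the threshold of 0.05 in that comparison, in which 1.54% of the 8489 genes tested passed. It stayed past it, at a log2 difference of 4.40 to 4.86, when any single fragment was left out. Between duct and TEB the log2 difference was 3.37 (SE 0.70, adjusted p = 0.089), and 0 of 8 members passed (0.271% of all genes). There 2 members had an unadjusted p below 0.05, and DESeq2 called 1, *Mmp3*. Between nipple and duct 0 of 8 passed as well, against 0.2% of all genes, with 0 below an unadjusted 0.05 and 0 called by DESeq2. The duct values rest on 31 cells, and D32 and D52 had 5 each. Without D32 the duct to TEB difference of *Mmp3* became 3.73 (adjusted p = 0.0015), so this fragment decided that call.

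Across the 3 locations the test called *Mmp3* (adjusted p = 0.019) and no other member, against 1.7% of all genes. That call was lost without N21 (adjusted p = 0.051), N23 (0.059), T32 (0.065) or T34 (0.059). Over the 8 members the median nipple to TEB log2 difference was 0.11, beside -0.02 over all genes tested, and 4 of 8 were higher in nipple.

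*Mmp2* (gelatinase A, which is activated at the cell surface by the membrane-type enzyme encoded by *Mmp14*, with *Timp2* as adaptor) was present in every fibroblast fragment. It was at 1900, 1718, 1649 and 1564 CPM in N21 to N24, at 1511, 657, 1521 and 1367 in D32, D52, D61 and D62, and at 1107, 1277, 1145, 1019 and 400.2 in T31, T32, T33, T34 and T42. Nipple values did not overlap those of duct or TEB, but the nipple to TEB log2 difference of 0.79 did not pass (SE 0.27, adjusted p = 0.19). With at least 10 fibroblasts required per fragment, which left 4 nipple, 2 duct and 4 TEB fragments, it was 0.59 (SE 0.12, adjusted p = 0.0041).

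*Mmp14* averaged 653 ± 174 CPM in nipple, 499 ± 258 in duct and 663 ± 385 in TEB fibroblasts, with the highest value, 1288 CPM, in T42. *Mmp23*, an atypical membrane-anchored member, averaged 212 ± 52.8, 359 ± 268 and 216 ± 123 CPM. *Mmp11* (stromelysin-3, which is activated by furin inside the cell) was the scarcest, at 61.6 ± 46.8, 16.9 ± 26.7 and 32.4 ± 35.3 CPM with 0 UMIs in D32, D52 and T31. For these 3 enzymes the locations overlapped, and adjusted p-values lay between 0.69 and 1 in every pair.

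*Timp2*, which besides inhibiting takes part in *Mmp2* activation, did not pass in fibroblasts with all fragments. It was at 433, 627, 629 and 684 CPM in D32, D52, D61 and D62 and at 1521, 1612, 1312, 981 and 293 CPM in T31, T32, T33, T34 and T42, with nipple between 699 and 997 CPM. Of the TEB fragments T42 alone lay below the ducts. The duct to TEB log2 difference was -0.94 (SE 0.33, adjusted p = 0.27). Without T42, which had 6 fibroblasts, it was -1.18 (SE 0.22, adjusted p = 0.0050), and with at least 10 cells per fragment it was -1.08 (SE 0.20, adjusted p = 0.0028).

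*Timp1*, a soluble inhibitor, averaged 387 ± 82.1 CPM in nipple, 532 ± 286 in duct and 332 ± 401 in TEB fibroblasts. The TEB fragments ran from 40.2 CPM in T31 to 1026 in T42, so that the SD exceeded the mean. *Timp3*, which binds the matrix and also inhibits ADAM and ADAMTS proteases, averaged 475 ± 210 CPM in nipple, 147 ± 177 in duct and 476 ± 305 in TEB, with 0 UMIs in D62. Neither passed in any pair (adjusted p between 0.63 and 1).

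**Figure D1:**
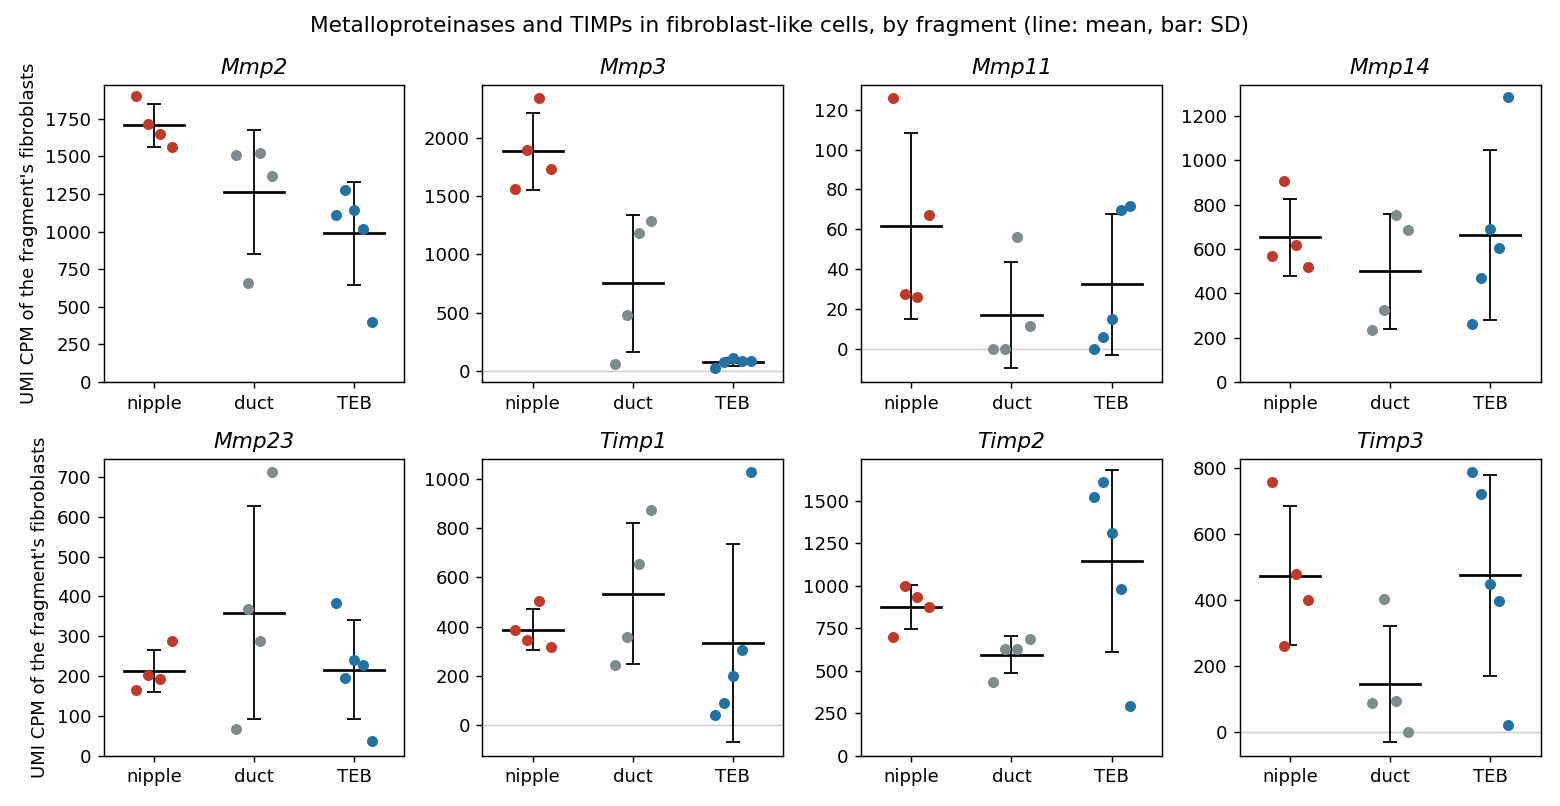
CPM of each member in the summed fibroblast-like cells of each fragment (points), by location, with the mean (line) and SD (bar) on linear axes. *Mmp3* is at 1561 to 2341 CPM in the 4 nipple fragments and at 19.6 to 112 in the 5 TEB fragments, while the locations overlap for *Mmp11*, *Mmp14*, *Mmp23*, *Timp1* and *Timp3*.

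Because the locations filled different fibroblast clusters, the members were also read within clusters. *Mmp3* was itself among the 10 leading genes of cluster 4, although no metalloproteinase or TIMP gene was used to build the clusters, so its level there against the other clusters is a description. Within cluster 4, pooled over cells, *Mmp3* was at 1854 CPM in nipple, 1047 in duct and 398 in TEB cells. Per fragment with at least 3 cells, cluster 4 gave 1520 to 2217 CPM in the 4 nipples. The ducts had 175, 55.8, 534, 1500 and 1301 CPM in D31, D32, D51, D61 and D62, and the TEBs had 320, 481 and 696 CPM in T32, T33 and T34. The nipple fragments thus lay above the duct and TEB fragments within the cluster too, and the ducts ran from below the TEB range to just under the lowest nipple. Cluster 4 held at most 9 cells in a duct and 7 in a TEB fragment. Cluster 7 had 26.1 CPM of *Mmp3* in its 64 TEB cells, and cluster 9 had 0 UMIs among 874713 in its 18 TEB cells, which allows up to 3 UMIs.

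The inhibitors and *Mmp14* divided the TEB fibroblast clusters in another way. *Timp1* was at 733 and 725 CPM in TEB cells of clusters 4 and 9 and at 54.9 in those of cluster 7. *Timp2* was at 1758 CPM in TEB cells of cluster 7, 409 in cluster 4 and 343 in cluster 9, and *Timp3* at 742, 85.3 and 263 CPM in the same order. *Mmp14* was highest in TEB cells of cluster 9, at 1480 CPM against 545 in cluster 4 and 332 in cluster 7, while *Mmp2* was lowest there, at 416 CPM against 1510 and 1179. The 6 fibroblasts of T42 were 2 cells of cluster 4 and 4 of cluster 9, and the 20 of T31 all belonged to cluster 7. These 2 fragments hold the highest and the lowest TEB values of *Timp1* and *Mmp14*. The mixture of clusters therefore moves with the spread between TEB fragments, and its part in it was not tested. *Pi16*- or *Dpp4*-positive fibroblasts had 1944 CPM of *Mmp3* in nipple and 66.3 in TEB, and cells with neither gene had 1668 and 74.9 CPM.

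**Figure D2:**
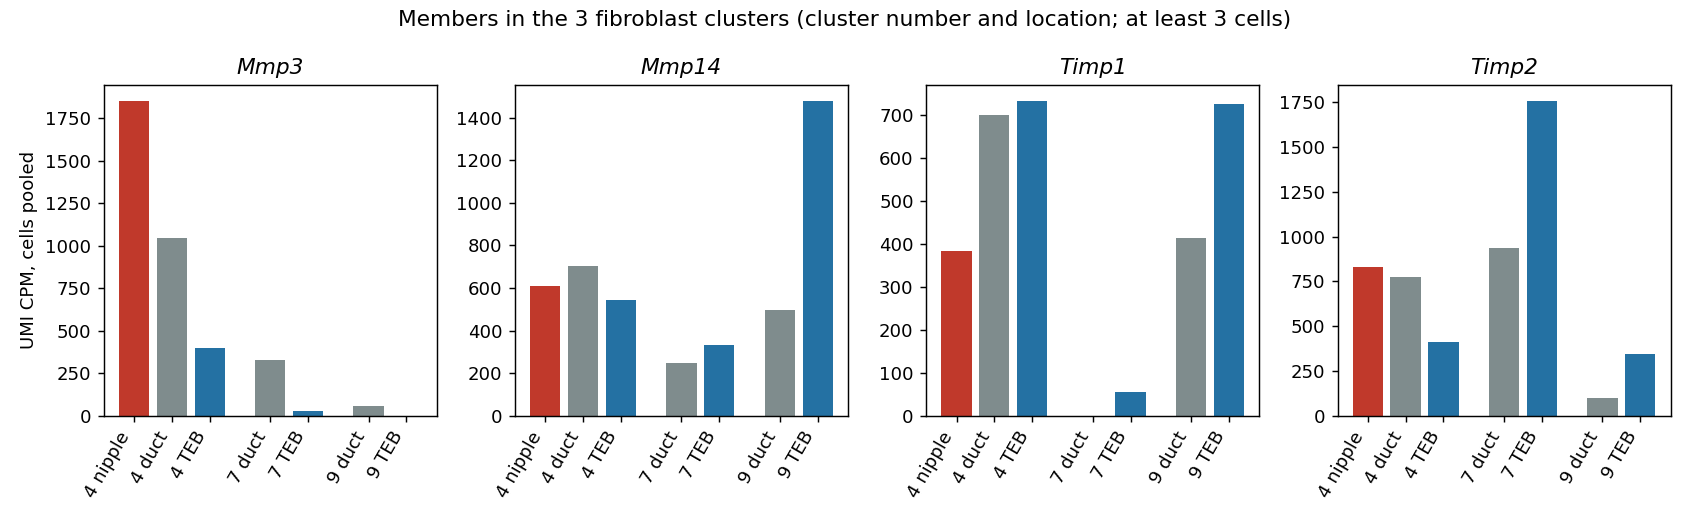
Pooled CPM of *Mmp3*, *Mmp14*, *Timp1* and *Timp2* in the 3 fibroblast clusters (4, 7 and 9) by location, where at least 3 cells were present, on linear axes with no error since cells are pooled. *Mmp3* falls from 1854 CPM in nipple to 398 in TEB cells within cluster 4, and *Timp2* peaks at 1758 CPM in TEB cells of cluster 7.

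The genes whose level followed that of *Mmp3* most closely were *Mfap4*, a microfibril-associated protein (Pearson r = 0.891 of log2(CPM + 1)), *Nnmt*, nicotinamide N-methyltransferase (0.872), and *Col1a2*, a chain of type I collagen (0.852). They were taken from 8716 genes over 66 sums of a class in a fragment, which share libraries and are no independent points. The sums cover all classes, so r also reflects the difference between fibroblasts and other cells and is no measure of a shared location pattern. *Col1a2* is itself 1 of the 7 fibroblast markers. In fibroblasts *Mfap4* averaged 481 CPM in nipple, 363 in duct and 16.9 in TEB. *Nnmt* averaged 707, 391 and 173 CPM in the same order, and *Col1a2* 8706, 7528 and 4509 CPM.

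Of related protease genes in fibroblasts, *Mmp19* moved in the same direction as *Mmp3*. It averaged 309 ± 19.1 CPM in nipple, 229 ± 127 in duct and 38.9 ± 22.5 in TEB, and passed against TEB from both sides (nipple log2 difference 3.01, adjusted p = 0.00028; duct 2.61, adjusted p = 0.0087). Of 19 other metalloproteinase and TIMP genes 18 had a row in the count table and 2 were high enough to test, and *Mmp19* was the only one past the threshold. Of 9 ADAMTS proteases tested only *Adamts2*, the procollagen N-proteinase, passed between nipple and TEB (532 ± 64.3 against 204 ± 83.7 CPM, log2 difference 1.37, adjusted p = 0.018). Of 9 ADAM proteases 0 passed in the nipple to TEB comparison, with 1 below an unadjusted p of 0.05 and 0 called by DESeq2. Of 13 genes of activation and inhibition 0 passed between nipple and TEB, with 4 below an unadjusted 0.05 and 0 called by DESeq2. *Pcsk6*, a proprotein convertase, was lower in duct than in TEB fibroblasts (0.709 ± 1.42 against 140.0 ± 80.7 CPM, adjusted p = 0.0092).

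In the epithelial classes, the members high enough to test numbered 7 (basal-like), 6 (ER+ luminal-like) and 5 (ER- luminal-like). The rest were too low, and *Mmp11* was too low in all 3. Across locations *Mmp2*, *Mmp3* and *Timp2* passed in basal-like cells, 3 of 7 where 20.6% of all genes passed. The same 3 of 6 passed in ER+ luminal-like cells (5.69% of all genes), and *Mmp3* and *Timp1*, 2 of 5, passed in ER- luminal-like cells (4.1%). For nipple against TEB the members' median log2 difference was 1.12, 1.11 and 1.29 in the 3 classes in this order, beside -0.05, -0.02 and -0.03 over all genes tested. RNA of fibroblasts in the wells of other cells is set beside these values, because it was not even between locations. Its share was read from the UMIs of the 7 fibroblast markers, taking the fibroblasts of the same fragment as the source, and the same scaling gave an expected number of UMIs for each member. Fibroblast RNA made up 4.0% ± 1.11 of the UMIs of basal-like sums in nipple (SD, n = 4), 0.929% ± 0.238 in duct (n = 4) and 1.40% ± 0.553 in TEB (n = 5). In ER+ luminal-like sums these shares were 4.50%, 0.802% and 1.15%, and in ER- luminal-like sums 3.22%, 0.502% and 0.814%.

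*Mmp3* UMIs were near the number that fibroblast RNA would give in basal-like, ER+ and ER- luminal-like cells (ratios 0.95, 0.83 and 1.26). That number is itself inexact, since *Mmp2* had 0.58 of it in ER+ and 0.60 in ER- luminal-like cells. The *Mmp3* ratios are therefore not ranked. Basal-like cells had 33.8, 39.8, 153 and 93.8 CPM in N21 to N24, 0 to 15.2 CPM in the 6 ducts (median 0.72) and 1 UMI in all 6 TEB fragments together. The nipple fragments stood apart from all others. The nipple to duct log2 difference was 3.95 (SE 0.89, adjusted p = 0.0045; 6.29% of all genes passed), and without N23 it was 3.44 (adjusted p = 0.063). From pooled UMIs the nipple to TEB ratio was 259 (exact 95% interval 45.8 to 10300), and the test called it (adjusted p = 1.2e-05; 18.7% of all genes passed). In 13 fragments the basal-like sums held 165 *Mmp3* UMIs where fibroblast RNA alone would give 174 (ratio 0.95, 95% counting interval from 0.81).

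Both luminal classes had *Mmp3* mainly in nipple as well. ER+ luminal-like cells had 25.2, 75.4, 92.0 and 83.1 CPM of *Mmp3* in N21 to N24, 0 to 12.9 CPM in ducts (median 1.57) and 0 to 1.71 CPM in TEBs (median 0.43), with a nipple to TEB log2 difference of 6.50 (SE 0.91, adjusted p = 1.0e-05; 5.59% of all genes passed). They held 186 UMIs against 224 expected from fibroblast RNA (ratio 0.83). The 4 nipple fragments lay above all others. ER- luminal-like cells had 58.1, 66.4, 118 and 82.4 CPM in nipple, 0 to 12.7 CPM in ducts and 0 UMIs in the 4 TEB fragments, so that nipple was at least 50.2-fold higher, against a limit of 3 UMIs over the TEB sums (adjusted p = 0.0029; 4.57% of all genes passed). They held 114 UMIs against 90.7 expected (ratio 1.26, 95% counting interval from 1.04), above expectation in 6 of 12 fragments and in 4 of 4 nipples. With the fibroblast markers taken without the collagens, the ratio was 0.62 in ER+ and 1.49 in ER- luminal-like cells. When fibroblast RNA was subtracted, *Mmp3* fell below the limit for testing in every epithelial class, and 20 UMIs were left in nipple basal-like, 0 in nipple ER+ luminal-like and 20 in nipple ER- luminal-like sums. *Mmp3* was therefore not tested after subtraction.

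**Figure D3:**
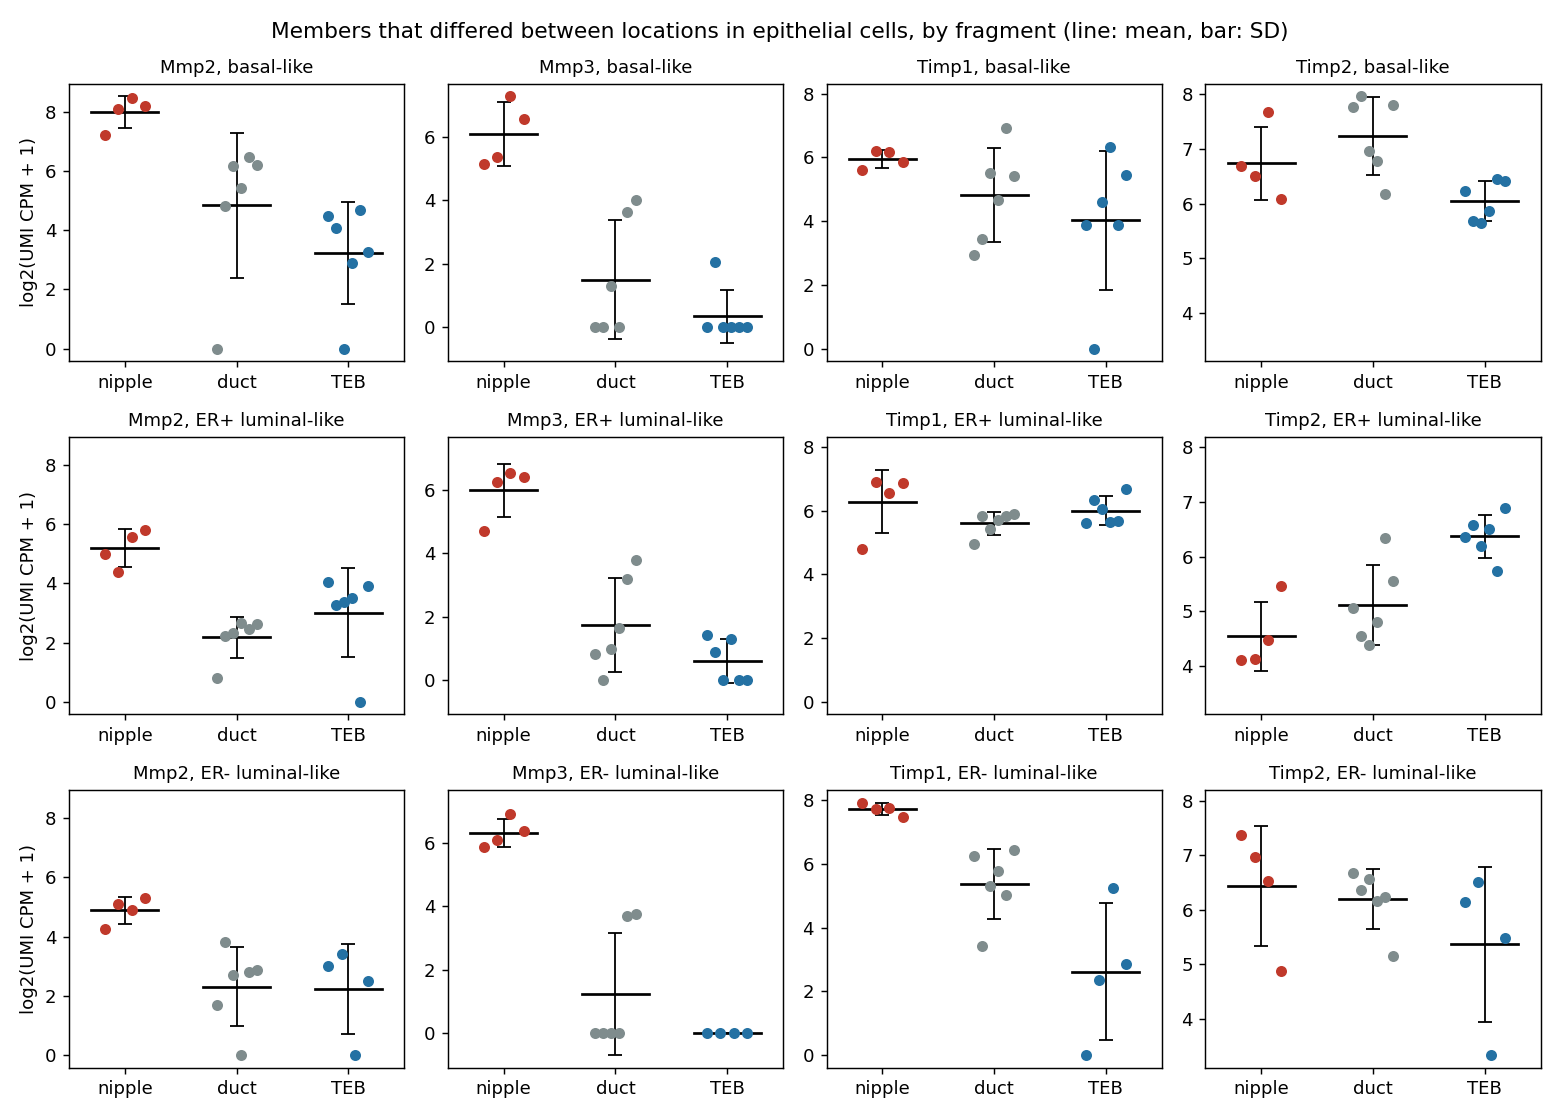
log2(CPM + 1) of *Mmp2*, *Mmp3*, *Timp1* and *Timp2* per fragment (points) in the basal-like, ER+ and ER- luminal-like sums, with mean (line) and SD (bar); a pseudocount of 1 is used for the plot alone. *Mmp3* is high in all 4 nipple fragments of every class, *Mmp2* reaches 349 CPM in nipple basal-like cells, and *Timp1* is higher in nipple than in the 4 TEB fragments plotted for ER- luminal-like cells, while T43, left out with 3 such cells, was at 191 CPM, within the nipple range.

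*Mmp2* in basal-like cells was above what fibroblast RNA would give. TEB basal-like cells were almost all of cluster 5 and those of nipple and duct of cluster 1, so the location and the cluster cannot be told apart here. It was at 147, 272, 349 and 289 CPM in N21 to N24, at 0 to 86.9 CPM in the 6 ducts (median 56.4) and at 0 to 24.8 CPM in the 6 TEBs (median 12.1). No nipple fragment overlapped the others, while ducts and TEBs overlapped. The nipple to TEB log2 difference was 4.25 (SE 0.57, adjusted p = 2.5e-06), the nipple to duct difference 2.36 (SE 0.52, adjusted p = 0.0045) and the duct to TEB difference 1.89 (SE 0.54, adjusted p = 0.021; 10.4% of all genes passed). The last was not past the threshold without D51 (adjusted p = 0.052), D61 (0.052) or T43 (0.060). Between the fragments numbered 31 it ran the other way, with 0 CPM in D31 and 21.5 CPM in T31. Between those numbered 32 duct was above TEB, with 27.1 CPM in D32 and 15.7 CPM in T32.

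Nipple basal-like sums held 528 *Mmp2* UMIs against 138 expected from fibroblast RNA, and every nipple fragment was above its expectation (74 against 25.1, 164 against 41.4, 139 against 35.8 and 151 against 35.3). Duct sums held 101 against 22.3, above in 4 of 4 fragments. TEB sums held 49 against 33.3, above in 2 of 5. With fibroblast RNA subtracted the nipple to TEB log2 difference was 5.42 (SE 0.89, adjusted p = 0.00018; 18.2% of all genes passed) and the duct to TEB difference 3.08 (adjusted p = 0.023; 9.81%). The nipple to duct difference of 2.34 did not pass (adjusted p = 0.077; 5.98%). The UMIs were spread over many cells: 81 of 97 nipple basal-like cells had at least 1 *Mmp2* UMI and 35 had 5 or more, against 43 and 12 of 115 duct cells and 20 and 1 of 82 TEB cells. Summed fibroblast marker levels had a median of 1354 CPM in the 35 nipple cells and 1241 CPM in the other nipple basal-like cells. In duct the median was higher in the 12 cells, at 573 CPM against 331 CPM in the other basal-like cells. The 1 TEB cell was at 150 CPM, against a median of 343 CPM in the others.

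In luminal cells *Mmp2* UMIs were fewer than fibroblast RNA would give. ER+ luminal-like cells had 30.7, 19.7, 46.8 and 54.3 CPM in nipple. The ducts lay between 0.76 and 5.37 CPM (median 4.2) and the TEBs between 0 and 15.4 CPM (median 9.85), all below the nipples. The nipple to duct log2 difference of 3.27 passed (SE 0.70, adjusted p = 0.0065; 2.05% of all genes), and nipple to TEB did not (1.95, adjusted p = 0.078). These cells held 167 UMIs against 288 expected, and ER- luminal-like cells 57 against 95.7.

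*Timp2* differed between locations in another order in basal-like than in ER+ luminal-like cells. In ER+ luminal-like cells it was at 16.2, 16.4, 21.1 and 43.1 CPM in N21 to N24, at 19.8 to 80.1 in the 6 ducts (median 29.7) and at 52.3 to 117 in the 6 TEBs (median 85.3). Every TEB fragment lay above every nipple fragment (log2 difference -1.77, SE 0.42, adjusted p = 0.0077). Between duct and TEB 0 of 6 members passed in edgeR, against 1.81% of all genes, with 3 below an unadjusted 0.05 and 1, *Timp2*, called by DESeq2. In nipple the 55 UMIs were fewer than the 84.4 that fibroblast RNA would give, while in TEB 449 were found against 96.8. With fibroblast RNA subtracted 0 UMIs were left in nipple, 237 in duct and 565 in TEB, and both nipple differences passed (adjusted p = 1.5e-06 against TEB, where 5.63% of all genes passed, and 0.00014 against duct, where 2% passed). Values under 0 were set to 0 in the subtraction, so the nipple sums were fixed at 0 and these 2 calls follow from that. Before subtraction the nipple to duct log2 difference was -0.61 (SE 0.41, adjusted p = 0.56). In basal-like cells *Timp2* was at 102, 89.5, 204 and 67.0 CPM in N21 to N24. The ducts lay between 70.9 and 249 CPM (median 170) and the TEBs between 49.2 and 86.3 CPM (median 65.8), with only D61 within the TEB range. There duct was above TEB (log2 difference 1.27, SE 0.33, adjusted p = 0.0072), and 1.62 with fibroblast RNA subtracted (adjusted p = 0.0033).

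The difference of these *Timp2* location effects between the 2 classes was itself tested in a model with the fragment as a block. Basal-like minus ER+ luminal-like, it was 2.55 for nipple against TEB (SE 0.61, adjusted p = 0.0062; 6.35% of all genes passed) and 2.57 for duct against TEB (SE 0.52, adjusted p = 0.0015; 3.42% passed). *Mmp2* also differed for duct against TEB (3.19, SE 0.83, adjusted p = 0.019). Its ER+ luminal-like side was no more than fibroblast RNA would give, at 23 UMIs against 51.9 expected in duct and 56 against 77.9 in TEB. Of 9 such comparisons between pairs of classes, 3 had a member past the threshold. In the other 6, where 0.41%, 0.512%, 1.15%, 1.17%, 1.39% and 2.08% of all genes passed, 0 of 40 member tests passed in edgeR and 7 were below an unadjusted 0.05. DESeq2 was not run on this model. In ER- luminal-like cells *Timp2* ranged from 9.14 to 165 CPM, and no pair passed (adjusted p = 0.48 to 0.88).

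*Timp1* set nipple apart in ER- luminal-like cells of the fragments with at least 5 such cells. It was at 241, 209, 214 and 174 CPM in N21 to N24, at 9.82 to 85.5 CPM in the 6 ducts (median 46.2) and at 0, 4.11, 36.6 and 6.22 CPM in T32, T33, T34 and T42. Among these fragments nipple did not overlap duct or TEB, but T43, left out with 3 such cells, was at 191 CPM. The nipple to TEB log2 difference was 4.41 (SE 0.73, adjusted p = 0.00019) and the nipple to duct difference 2.09 (SE 0.54, adjusted p = 0.037; 1.63% of all genes passed). The second was lost when any of 8 fragments was left out (each nipple, D32, D51, D52 or D61; adjusted p = 0.066 to 0.11). Between duct and TEB 0 of 5 members passed in edgeR, against 1.14% of all genes, with 2 below an unadjusted 0.05 and 1, *Timp1*, called by DESeq2.

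Nipple ER- luminal-like sums held 242 *Timp1* UMIs against 17 expected from fibroblast RNA, and with that RNA subtracted the nipple to TEB log2 difference was 4.89 (adjusted p = 0.00081; 4.46% of all genes passed). The TEB side is thin, however. T31 and T43 had 4 and 3 ER- luminal-like cells and were left out. T31 had 0 *Timp1* UMIs and T43 had 29, or 191 CPM, and with both included the difference fell to 2.63 (adjusted p = 0.10). In ER+ luminal-like cells *Timp1* was at 27.0, 118, 93.5 and 115 CPM in N21 to N24 and at 48.4 to 103 CPM in TEB (median 57.9), and the nipple to TEB effect in ER+ minus that in ER- luminal-like cells was -4.23 (SE 0.89, adjusted p = 0.0032; 2.39% of all genes passed).

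With fibroblast RNA subtracted, the members past the threshold across locations were *Mmp2* and *Timp2* in basal-like cells (19.7% of all genes passed), *Timp2* in ER+ luminal-like cells (5.44%) and *Timp1* in ER- luminal-like cells (3.93%). The *Timp2* call in ER+ luminal-like cells rests on nipple sums that the subtraction had set to 0. The *Timp1* call leaves out T31 and T43, which had fewer than 5 ER- luminal-like cells. In edgeR 0 members then passed between duct and TEB in ER+ (1.64% of all genes) and ER- luminal-like cells (1.32%), with 1 below an unadjusted 0.05 in each. Between nipple and duct 0 passed in ER- luminal-like cells (1.42%), with 2 below it. DESeq2 was not run on subtracted counts.

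*Mmp14* and *Timp3* were present in epithelial cells beyond fibroblast RNA with no difference between locations past the threshold. *Mmp14* was at 59.5 to 281 CPM in basal-like and 63.9 to 171 in ER+ luminal-like fragments, with 950 UMIs against 101 expected and 1509 against 119, and was above expectation in 13 of 13 fragments of both classes. *Timp3* was at 23.4 to 278 CPM in basal-like and 4.57 to 233 in ER- luminal-like fragments, with 1061 UMIs against 52.3 expected and 369 against 27.0. *Timp1* in basal-like cells, at 0 to 121 CPM, had 272 UMIs against 66.7 expected and did not pass in any pair either (adjusted p = 0.27 to 0.74). In ER+ luminal-like cells *Timp3* was at 1.78 to 16.6 CPM, with 69 UMIs against 92.1 expected. *Mmp23* was above expectation in basal-like cells (158 UMIs against 32.2) and at or under it in ER+ (29 against 57.3) and ER- luminal-like cells (10 against 14.8).

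**Figure D4:**
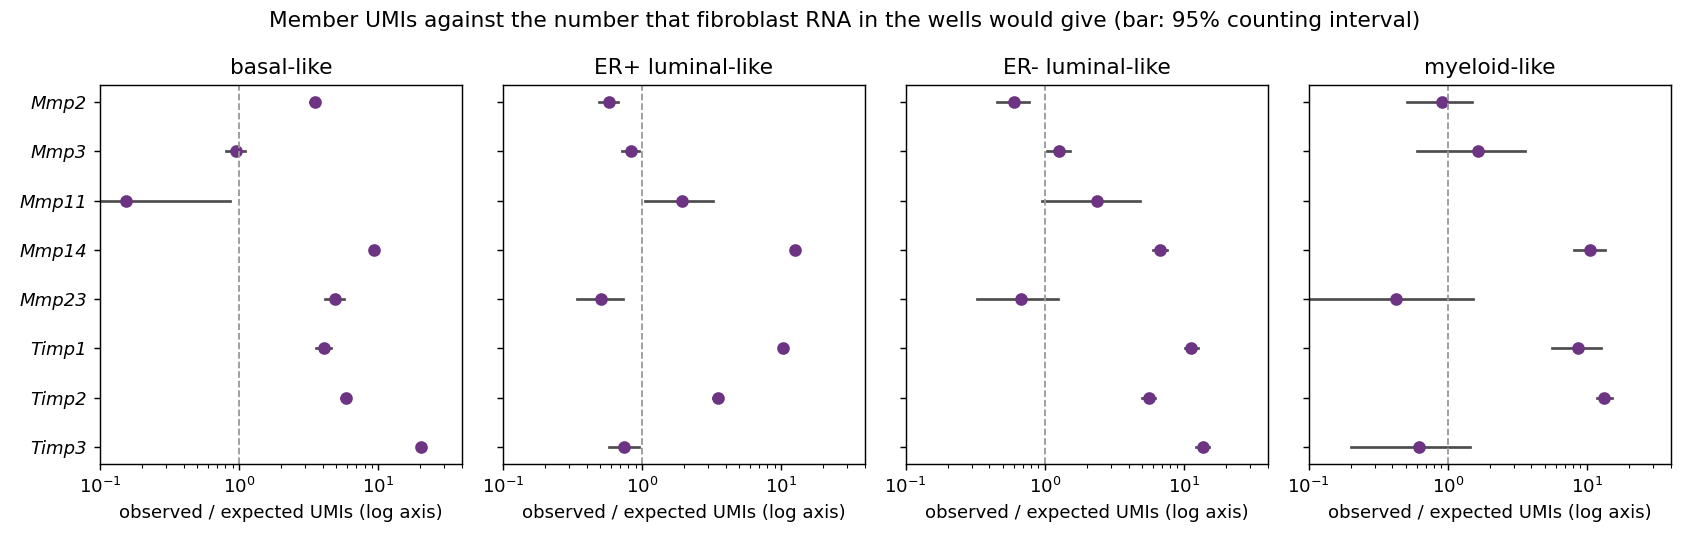
Observed over expected UMIs of each member in 4 classes, where the expected number is that which fibroblast RNA in the wells would give, with 95% Poisson intervals (bars) on a log axis. *Mmp3* lies between 0.83 and 1.26 in the 3 epithelial classes, *Mmp2* at 3.51 in basal-like cells, and *Mmp14*, *Timp1* and *Timp2* above 3 in every class shown; the dashed line marks 1, intervals are drawn down to 0.1, and *Mmp11* has no point in myeloid-like cells since it had 0 UMIs there.

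Shares of cells with a UMI were compared with each cell thinned to 5000 UMIs, which left out 1 ER- luminal-like cell. *Mmp2* was found in 97.6% of fibroblast-like, 27.6% of basal-like, 5.36% of ER+ luminal-like, 5.08% of ER- luminal-like and 8.97% of myeloid-like cells. *Mmp3* was found in 50.4%, 12.6%, 2.56%, 13% and 6.41% of the same classes, and *Mmp14* in 77.8%, 37.8%, 35.2%, 27.7% and 19.2%. *Timp2* was found in 87.3% of fibroblast-like cells and in 18.6% to 31.3% of the other classes, and *Timp3* in 55.6% of fibroblast-like and 39.1% of basal-like cells but 1.86% of ER+ luminal-like cells. Unthinned, *Mmp2* had a UMI in 100%, 49.0%, 28.2%, 27.1% and 26.9% of them, at median depths of 36416, 25194, 36362, 26199 and 18966 UMIs per cell. For *Mmp2* the share in luminal cells, whose UMIs were no more than fibroblast RNA would give, is read as background.

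Among other genes of proteolysis in basal-like cells, the urokinase receptor *Plaur* (994 ± 250 CPM in nipple, 867 ± 230 in duct and 244 ± 67.0 in TEB) and the thrombospondin *Thbs1* (930 ± 166, 1219 ± 335 and 415 ± 91.6 CPM) were lower in TEB. Of the genes of activation and inhibition described here, *Pcsk5*, *Plat*, *Plaur* and *Thbs1* were higher in nipple than in TEB and 2 were lower. The latter were the convertase *Pcsk6* and the protease inhibitor *Serpine2*, which averaged 8.47 ± 3.54 CPM in nipple and 295 ± 140 in TEB (log2 difference -5.09, SE 0.57, adjusted p = 3.5e-08). Of 5 ADAM genes *Adam23* passed between nipple and TEB, at 1.87 ± 1.57 CPM in nipple and 26.4 ± 17.4 in TEB, and of 3 ADAMTS genes *Adamts2*, at 60.4 ± 49.6 and 2.16 ± 1.17 CPM, where 18.7% of all genes passed. The genes of this paragraph are given without the number that fibroblast RNA would give. *Adamts2* was at 532 CPM in nipple and 204 in TEB fibroblasts, and the part of that RNA in its basal-like difference was not tested. *Adamts1*, at 158 ± 51.7 CPM in nipple, 28.9 ± 24 in duct and 80.2 ± 35.4 in TEB, passed between nipple and duct (6.29% of all genes) and between duct and TEB (10.4%). *Adam15*, *Adam23* and *Adamts2* passed between duct and TEB as well. No other metalloproteinase or TIMP gene was high enough to test in basal-like cells. *Furin*, the convertase that activates *Mmp14* and *Mmp11* products, was 1 of 9 such genes past the threshold in ER+ luminal-like cells, at 191 ± 49.6 CPM in nipple, 38.3 ± 18 in duct and 34 ± 13.6 in TEB (nipple to TEB log2 difference 2.46, SE 0.34, adjusted p = 6.9e-06). In the same comparison 0 of 5 ADAM, 0 of 1 ADAMTS and 0 of 1 other metalloproteinase genes passed in edgeR, with 1 ADAM gene below an unadjusted 0.05 and 0 called by DESeq2.

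In myeloid-like cells of duct and TEB *Timp2* was the most abundant member. It was at 332 and 243 CPM in D61 and D62 and at 310, 372, 407, 103 and 258 CPM in T31, T32, T33, T34 and T43, with 244 UMIs against 18.2 expected from fibroblast RNA in 6 fragments. *Mmp14* was uneven, at 0 and 216 CPM in the ducts and at 22.5, 0, 37.8, 328 and 25.4 CPM in the TEBs. These were the only testable members, and 0 of 2 passed in edgeR between duct and TEB (0% of 3321 genes passed, 249 had an unadjusted p below 0.05). Neither member was below an unadjusted 0.05, and DESeq2 called 0 of them. No nipple fragment had 5 myeloid-like cells. The 12 nipple cells pooled had 266 CPM of *Mmp14* and 73.5 CPM of *Timp2*, against 46.2 and 260 CPM in the 41 TEB cells. These nipple values were not tested. *Mmp2*, *Mmp3*, *Mmp23* and *Timp3* had 15, 6, 2 and 5 UMIs in the 6 fragments, against 16.5, 3.65, 4.74 and 8.01 expected, and *Mmp11* had 0 UMIs.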

How the data were processed

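The authors trimmed reads with Trim Galore, extracted barcodes and UMIs with UMI-tools, aligned to mm10 with STAR keeping unique alignments, assigned reads with featureCounts and deposited raw UMI counts, which are not normalized. Versions, annotation and strand setting are not given in the sources used here. The members and gene lists were chosen with earlier results of these data known.

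Cells outside the limits that the study applied (ERCC up to 5%, 5000 to 120000 UMIs, 200 to 6000 genes) were removed. The rest were clustered in R 4.3.3 with Seurat 5.3.0, using 14 components of 2000 variable genes (*Mmp* and *Timp* genes left out) at resolution 0.5. Clusters took the class with the highest marker score. After the clusters were seen, candidate names were limited to the 6 populations of the study, since a list of 3 glial genes led in the TEB basal cluster. Cluster 8 took the endothelial class by the marker score (2.55), but its leading genes include cycling genes and it was left unnamed. Doublets were not called.

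For each class, the raw counts of all its cells in a fragment were added up where there were at least 5, and these sums were tested by location in edgeR 4.0.16 with TMM factors, filterByExpr and a robust quasi-likelihood model holding every location (threshold 0.05). CPM per fragment are scaled by TMM, and pooled CPM are not. An SE is the log2 difference over the root of F. Class sums held 89639 to 1513801 UMIs in fibroblast-like, 302554 to 1210315 in basal-like, 315342 to 2061534 in ER+, 227131 to 726350 in ER- luminal-like and 108494 to 247410 in myeloid-like cells. Intervals cover counting error only. Expected UMIs are the fibroblast profile of the same fragment scaled to the 7 fibroblast marker UMIs of the sum, for fragments with at least 5 fibroblasts; the subtraction used the pooled profile of the location in the others. Classes were not tested against each other, since they come from clustering.

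Named genes are the 8 members, members of fixed lists (other metalloproteinases and TIMPs, ADAM, ADAMTS, activation and inhibition, immediate early) past the threshold (1 gene of these lists is not reported here), and the 3 genes most like a member that passed across locations in fibroblasts. Tested on simulated data with 200 genes changed by a log2 of 2, nipple against TEB recovered 32.5% in fibroblast-like (8489 genes), 50.5% in basal-like (7316), 59.5% in ER+ (8827) and 49.5% in ER- luminal-like cells (5706), so smaller or scarcer changes can be missed. In that simulation false calls made up 2.99%, 6.48%, 3.25% and 5.71% of the calls, in the same class order. Gene positions are from GENCODE M21. Alternatives were other cell limits, clusterings, cell minima, DESeq2 1.42.0, RLE factors, no filter, thinning, left-out fragments, a replicate block and, added after the data were seen, subtraction of fibroblast RNA and the class by location model.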

Additional observations from a re-analysis of the deposited data

Results flagged for a closer look

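In 5 of 79 groups of fragments tested a single fragment lay farther from the rest than Dixon's test allows at 95%, where chance flags about 1 in 20 groups, so that the number is near the one chance gives. *Timp1* in TEB fibroblasts was at 1026 CPM in T42 and at most 305 in the other 4. *Timp1* in duct basal-like cells was at 121 CPM in D61 (next 44.6). *Timp1* in TEB ER- luminal-like cells was at 36.6 CPM in T34 (next 6.22). *Mmp14* in TEB myeloid-like cells was at 328 CPM in T34 (next 37.8). *Mmp3* in TEB basal-like cells was at 3.14 CPM in T32, which is 1 UMI, and at 0 elsewhere.

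In 4 cases location effects differed between epithelial classes by the class by location test given above. These were *Timp2* in basal-like minus ER+ luminal-like cells (2.55 for nipple against TEB and 2.57 for duct against TEB on the log2 scale), *Mmp2* in the same classes for duct against TEB (3.19) and *Timp1* in ER+ minus ER- luminal-like cells for nipple against TEB (-4.23). In the *Mmp2* case the ER+ luminal-like UMIs were no more than fibroblast RNA would give in duct and in TEB. The *Timp1* case rests on 14 fragments, without T31 and T43. The 3 ER- luminal-like cells of T43 had 191 CPM of *Timp1*.

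Members were also found in the 2 clusters left without a class, of which cluster 8 had its highest marker score for endothelial cells. Cluster 8 (67 cells from all 16 fragments, led by *Ctla2a*, *Fabp4*, *Srgn* and cycling genes) had 105.5 CPM of *Mmp14*, 69.7 of *Timp3*, 63.8 of *Timp2*, 52.1 of *Timp1*, 27.5 of *Mmp3*, 23.4 of *Mmp2* and 2.09 of *Mmp23*. Cluster 10 (19 cells, 11 of them from nipple, led by *Gm13889*, *Procr* and *Il6*) had 678 CPM of *Timp3* and 285 of *Timp1*. Its other values were 112.5 CPM of *Mmp14*, 77.3 of *Timp2*, 70.3 of *Mmp2* and 38.7 of *Mmp3*. These are pooled values with no test.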

How the results depend on the processing

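Of the single-member differences under all alternatives, 355 kept their direction and side of the threshold, 30 no longer passed and 1 reversed. Counts of members past the threshold stayed within 1.5 times in 177 cases and moved beyond that in 19. Apart from the subtraction, the share of all genes past the threshold was not recorded for the alternatives. The counts below stand without it. In fibroblasts, requiring at least 10 cells gave 3 members for nipple against TEB (*Mmp2*, *Mmp3*, *Timp2*), 2 for duct against TEB and 4 across locations, and DESeq2 and thinning to 5000 UMIs each gave 1 for duct against TEB. Leaving out 1 fragment gave 0 to 2 members across locations and 0 to 1 for duct against TEB. Across locations, scaling without regression gave 1 in basal-like cells, and including fragments with 3 cells gave 1 in ER- luminal-like cells. In the same test, thinning, which leaves fewer UMIs, gave 1 in basal-like cells and 0 in both luminal classes. Subtracting fibroblast RNA gave 1 in each luminal class. The causes of these shifts were not tested. The replicate block could be fitted only over duct and TEB fragments 31 and 32, which share a number and nothing more in the labels. Since only these 4 fragments then inform the difference, the block and the smaller number of fragments cannot be told apart. The duct to TEB difference in basal-like cells was -0.81 for *Mmp2* (adjusted p = 0.88) and 1.92 for *Timp2* (adjusted p = 0.027). No paired analysis was possible for nipple because its numbers are not shared, nor in fibroblast-like and ER- luminal-like cells because only 32 is shared there. Of the ratios of observed to expected UMIs under other settings, 72 stayed within their counting interval and 24 did not; taking the share from the whole fragment lowered *Timp3* in basal-like cells from 20.3 to 11.8 and *Mmp14* in ER+ luminal-like cells from 12.7 to 7.28. Depth limits what can be said of *Mmp11* and of *Mmp3* in TEB epithelium, where UMIs were near 0.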

Other observations

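Enzymatic dissociation is known to induce immediate early genes, and some metalloproteinase genes respond to the same factors. The summed level of 9 such genes in fibroblast-like cells was 1776 to 1932 CPM in nipple, 1766 to 3223 in duct and 1095 to 2302 in TEB fragments, so the locations overlapped. D32, with 5 fibroblasts and the highest sum, had the lowest *Mmp3* of the ducts (55.6 CPM). Whether dissociation has a part in the *Mmp3* levels was not tested. Between nipple and TEB fibroblasts 0 of the 9 passed in edgeR (1.54% of all genes passed), 2 had an unadjusted p below 0.05 and DESeq2 called 1, *Junb*. In edgeR *Junb* was higher in nipple, as *Mmp3* was (log2 difference 1.15, SE 0.32, adjusted p = 0.072). In epithelial cells *Jun* was lower in nipple than in TEB basal-like cells (338 ± 59.0 against 723 ± 163 CPM, log2 difference -1.10, adjusted p = 0.035), and *Ier2* was higher in nipple than in TEB ER+ luminal-like cells (428 ± 50.5 against 287 ± 35.8 CPM, adjusted p = 0.018).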
